A study of Mus musculus with 24 samples.

Results

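The 10 genes described here carry dietary fat through the absorptive cell of the gut and onto the chylomicron: *Cd36*, *Fabp1*, *Fabp2*, *Mogat2*, *Dgat1*, *Mttp*, *Apob*, *Apoa1*, *Apoa4* and *Apoc3*. They were chosen by name, as genes of lipid uptake, re-esterification and apolipoproteins, from the 53465 genes in the count table, and all 10 passed the filter on low counts that left 15044 genes to test. RNA was sequenced from intestinal epithelium of Guca2a-Venus mice, in which a BAC transgene has Venus, a fluorescent protein, standing in for the coding region of *Guca2a*, the gene of the gut peptide guanylin. All libraries carry this transgene, and the line comes from 1 founder, so Venus marks cells in which the transgene of that 1 line is read. Epithelium of the duodenum, jejunum, ileum and colon was digested to single cells and sorted into Venus-positive and Venus-negative cells, with dead cells, debris and CD45-positive immune cells removed. The mice ate standard chow freely, and their age is not given in the sources used here. Each of the 8 groups (4 regions by 2 sorts) has 3 libraries. The series states that these come from 3 mice, but the labels do not say which library came from which mouse, so Venus-positive and Venus-negative cells were not paired.

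In the enterocyte, fatty acids and monoacylglycerols from the meal are taken up across the brush border and bound by small cytosolic carriers. They are rebuilt into triglyceride in the endoplasmic reticulum. The microsomal triglyceride transfer protein then loads this fat onto apolipoprotein B, and the particle collects further apolipoproteins and leaves the cell as a chylomicron. This work is known to be done chiefly by villus enterocytes of the proximal small intestine, while the colon absorbs little dietary fat.

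The promoters are printed first because the results below turn on pairs of genes that parted along the gut: the carriers *Fabp1* and *Fabp2*, and the neighbours *Apoa1* and *Apoa4*. RefSeq sequence of GRCm38.p6 was available for 7 of the 10 genes (*Fabp2*, *Mttp*, *Cd36*, *Fabp1*, *Apoa1*, *Apoa4* and *Apob*), and *Apoc3*, *Dgat1* and *Mogat2* are named only. Each window held 300 bases, of which the 250 bases before the annotated start are shown on the strand of the gene, and capitals mark matches to the motifs searched. The windows shown are chr6:71199629-71199878 on the + strand for *Fabp1*, chr3:122894822-122895071 on the + strand for *Fabp2*, chr9:46228380-46228629 on the + strand for *Apoa1* and chr9:46240594-46240843 on the + strand for *Apoa4*.
Fabp1: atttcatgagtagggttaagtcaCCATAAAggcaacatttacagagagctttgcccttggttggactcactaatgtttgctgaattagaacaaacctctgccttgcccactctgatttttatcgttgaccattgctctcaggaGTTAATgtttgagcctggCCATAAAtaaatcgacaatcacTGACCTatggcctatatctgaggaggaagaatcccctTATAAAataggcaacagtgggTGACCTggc
Fabp2: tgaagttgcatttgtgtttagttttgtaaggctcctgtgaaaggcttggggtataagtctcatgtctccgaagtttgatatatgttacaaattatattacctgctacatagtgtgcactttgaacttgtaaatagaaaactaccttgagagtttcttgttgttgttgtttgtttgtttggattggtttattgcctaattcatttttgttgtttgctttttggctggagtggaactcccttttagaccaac
Apoa1: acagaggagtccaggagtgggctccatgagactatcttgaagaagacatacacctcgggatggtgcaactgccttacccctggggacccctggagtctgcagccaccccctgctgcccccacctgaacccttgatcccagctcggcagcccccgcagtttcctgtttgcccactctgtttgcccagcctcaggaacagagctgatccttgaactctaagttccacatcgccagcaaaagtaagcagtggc
Apoa4: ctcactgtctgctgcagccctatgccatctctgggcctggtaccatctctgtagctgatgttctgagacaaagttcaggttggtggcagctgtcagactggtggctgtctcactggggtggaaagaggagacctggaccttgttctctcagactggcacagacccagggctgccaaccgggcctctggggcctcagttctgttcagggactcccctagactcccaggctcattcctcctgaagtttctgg

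Both strands were searched for 6 motifs. AGGTCA is the core hexamer of nuclear receptor sites and CAAAGTCCA an HNF4 site. GTTAAT is the core of the HNF1 site. CCATAAA is a CDX site, AGATAA a site of GATA factors and TATAAA the TATA box. CCATAAA and TATAAA share the letters ATAAA, and no motif holds another whole. For 6 of the 7 genes (all but *Fabp2*) the RefSeq start lies downstream of the outermost start in the GRCm38 gene annotation that gives the gene positions below. Their windows thus reach into the annotated gene. Those of *Mttp* and *Cd36* lie wholly inside it, the *Cd36* window by far the deeper. The *Fabp1* window held 6 matches: CCATAAA at 227 and 89 bases before the start, GTTAAT at 107, the reverse complement of AGGTCA at 67 and 9, and TATAAA at 30. Over all 32851 promoters of the table, CCATAAA was in 2.75%, GTTAAT in 7.10%, AGGTCA in 16.3% and TATAAA in 13.6%. Of the other 6 genes, *Apob* held TATAAA at 60 bases before the start and *Cd36* the reverse complement of AGGTCA at 228. None of the 7 windows held CAAAGTCCA, found in 0.475% of promoters, or AGATAA, found in 11.2%. A match of letters is a description and not a binding site, and no match says only that these letters are absent from this window.

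Library facts that touch these genes are given once. The libraries held 7458616 to 23063124 gene counts. Venus-positive duodenum held 7458616 to 11165593 and Venus-negative duodenum 15086863 to 21114053. Reads that mapped to more than 1 place were 28.4% to 31.8% of all reads in the former and 19.6% to 24.3% in the latter. The part of these differences in the duodenal results was not tested. Levels are given as CPM, the usual depth-scaled unit, here with TMM-adjusted library sizes. A count of 3, taken as the floor of detection, equalled 0.106 to 0.360 CPM on this scale. Reads carry no molecular identifiers, so the floor allows for counting error alone. Mitochondrial genes took 32.3% to 46.6% of the counts in Venus-positive duodenum and 64.6% to 76.4% in Venus-negative duodenum. The shares were 47.1% to 60.6% against 61.2% to 78.8% for jejunum, 41.0% to 55.4% against 64.7% to 70.9% for ileum and 68.6% to 77.9% against 65.3% to 80.7% for colon. With nuclear genes alone the members called higher in Venus-positive cells were 1, 10, 9 and 2 from duodenum to colon, against 1, 10, 9 and 3 with all genes. The part of the mitochondrial share in the members' differences was otherwise not tested. *Guca2a* itself was higher in Venus-positive cells of every region, at 216 to 393 CPM against 2.67 to 6.74 for duodenum, 104 to 206 against 21.5 to 27.7 for jejunum, 161 to 221 against 22.5 to 32.6 for ileum and 516 to 706.9 against 69.5 to 120.5 for colon. All 12 enterocyte markers were above 3 counts in at least 1 library of each group. The level of a gene in sorted bulk RNA reflects both how many cells carry it and how much each carries, and these cannot be told apart here.

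The 10 genes together took 5.85% to 7.69% of the counts on nuclear genes in the 3 Venus-positive jejunum libraries. They took 1.06% to 2.55% in Venus-positive ileum, 0.740% to 1.002% in Venus-negative jejunum, 0.424% to 0.778% and 0.472% to 0.587% in positive and negative duodenum, and 0.123% to 0.227% in Venus-negative ileum. In the colon the shares were 0.101% to 0.149% in positive and 0.0434% to 0.0540% in negative cells. Venus-positive jejunum had the highest mean of the 8 groups for all 10 genes. For 9 of them its lowest library exceeded every library of the other groups, as it did for 4.19% of all genes tested, and the exception was *Mogat2*, at 114 CPM in the lowest positive jejunum library and 132 CPM in the highest positive ileum library. Lower down the order the groups were less clearly apart. Of 70 pairs of groups next to each other in the order of their means, the top pair of each gene included, 35 overlapped. This overlap was not counted over all genes. The plot of CPM by library shows these levels.

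**Figure D1:**
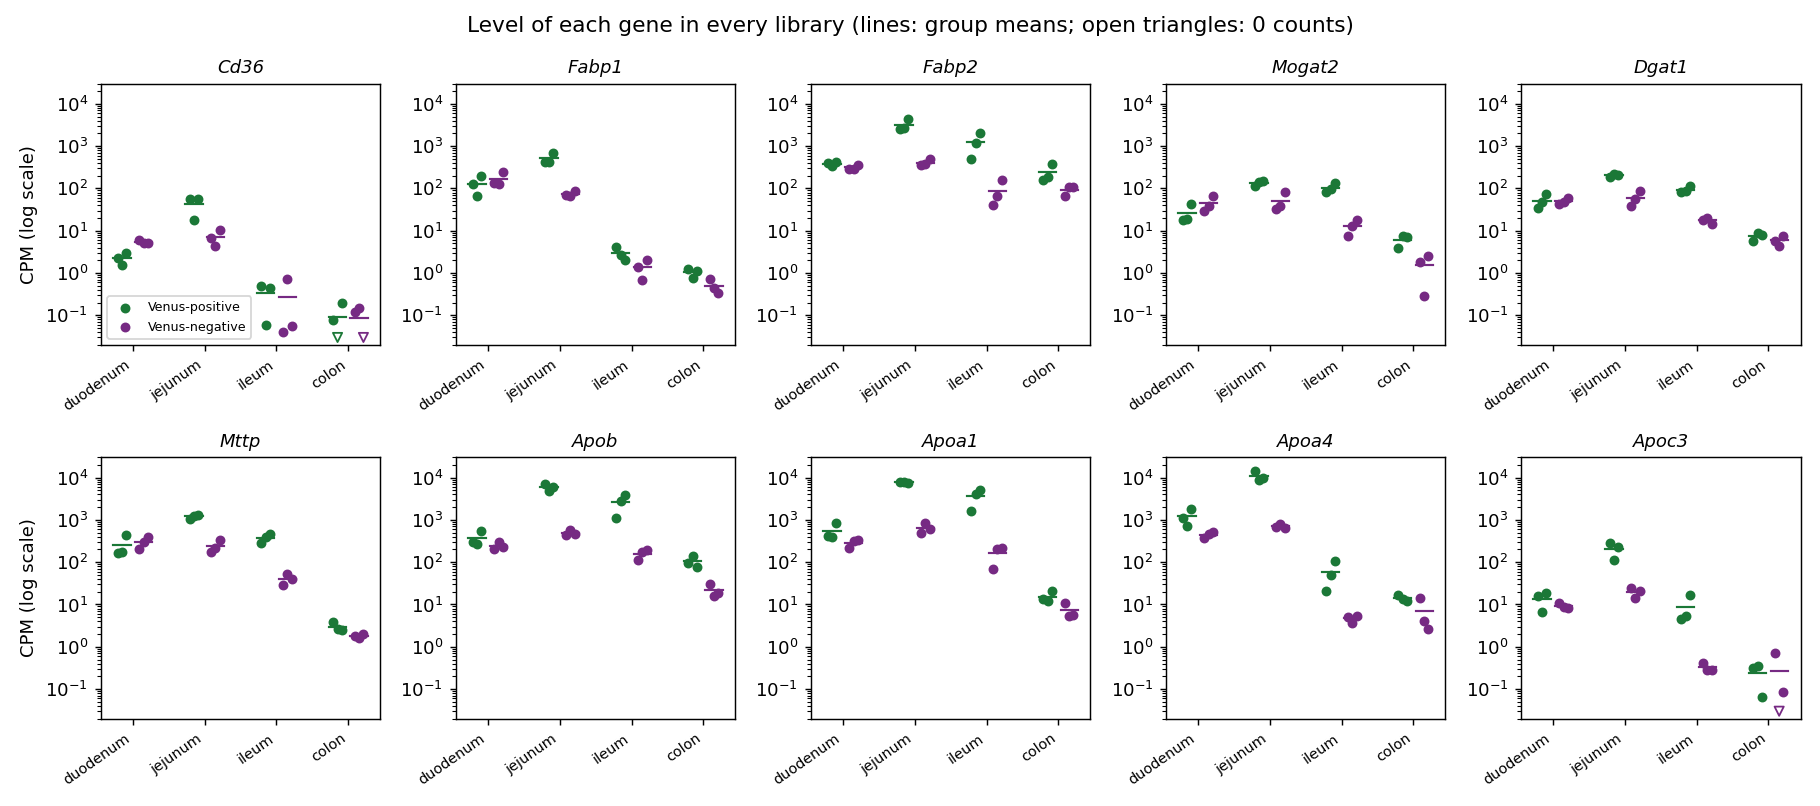
CPM on a log scale (y axis) of each of the 10 genes in every library, by gut region (x axis), with Venus-positive cells in green and Venus-negative cells in purple; points are libraries, short lines are means of 3, and open triangles are libraries with 0 counts. Venus-positive jejunum has the highest mean for all 10 genes, and Cd36, Fabp1, Apoa4 and Apoc3 drop by the ileum.

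Per kilobase of exon, which allows genes to be compared, *Apoa1* (6243 ± 238 CPM per kb, mean ± SD, n = 3) and *Apoa4* (5949 ± 1557) had the highest levels in Venus-positive jejunum. *Fabp2* followed at 3358 ± 1111, *Fabp1* at 937 ± 289, *Apob* at 428 ± 74.8, *Apoc3* at 204 ± 87.0 and *Mttp* at 195 ± 22.8. *Mogat2* at 74.9 ± 11.4, *Dgat1* at 66.5 ± 5.85 and *Cd36* at 12.0 ± 6.10 were lowest. In Venus-positive colon the order differed, with *Fabp2* first at 250.1 ± 128 CPM per kb and *Apoa1* at 12.5 ± 3.88.

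The first question was whether cells marked by the guanylin transgene differ from unmarked cells of the same region in these genes. Venus-positive cells of the jejunum were higher in all 10 genes and those of the ileum in 9 of 10, while 1 of 10 was higher in the duodenum and 3 of 10 in the colon. No member was lower in Venus-positive cells of any region by edgeR's quasi-likelihood test at an adjusted p of 0.05. At an unadjusted p of 0.05, 1 (*Cd36* in the duodenum) was lower, and DESeq2 called 0 lower in each region. Over all genes tested, the calls were 8.88% higher and 8.08% lower for duodenum, 18.3% and 25.6% for jejunum, 17.9% and 20.6% for ileum, and 9.31% and 3.80% for colon. The median log2 fold change of the 10 genes was 0.17, 2.90, 3.44 and 1.06 from duodenum to colon. That of all genes was -0.16, -0.28, -0.27 and 0.

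**Figure D2:**
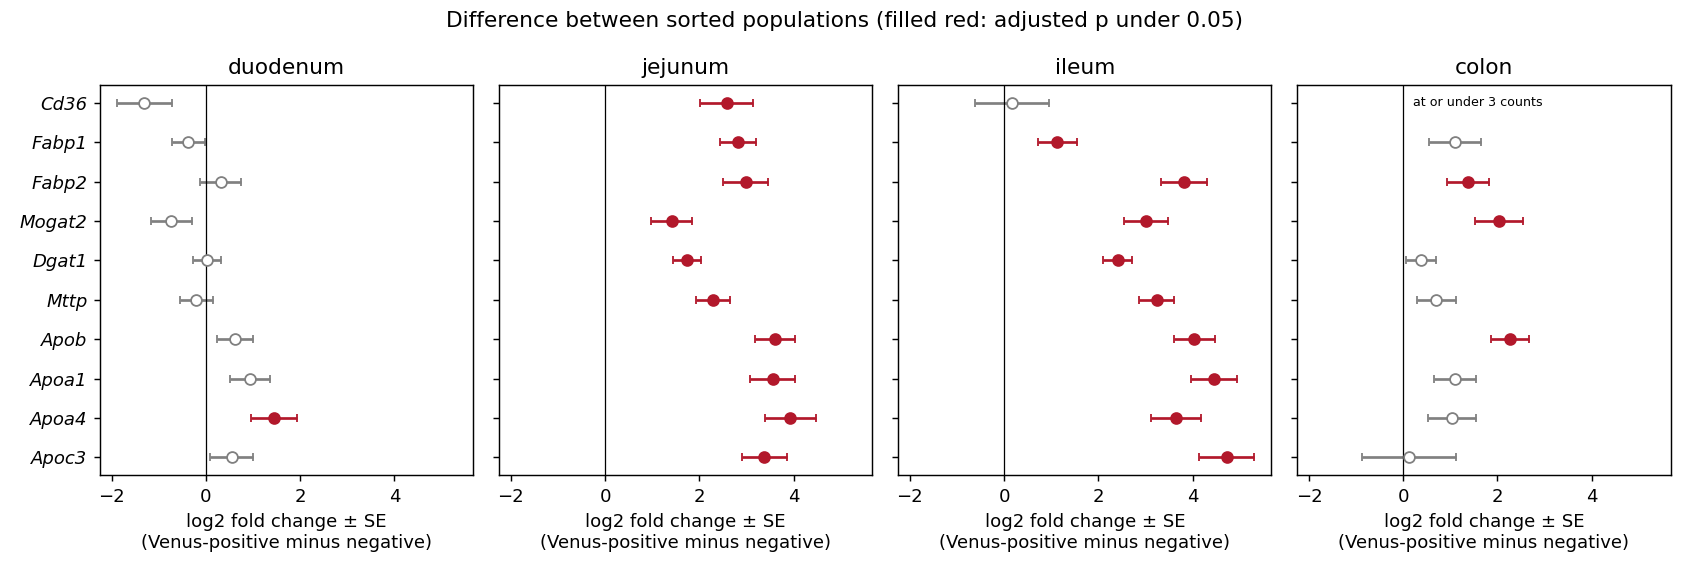
Log2 fold change of Venus-positive over Venus-negative cells (x axis), with its standard error, for each gene (y axis) in each region, from edgeR's fit over all 24 libraries; filled red points passed an adjusted p of 0.05. All 10 genes passed in the jejunum, 9 in the ileum, 3 in the colon and Apoa4 alone in the duodenum; Cd36 in the colon was at or under 3 counts and has no fold.

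Markers of other cells moved with the sort, and differently by region. Of 12 enterocyte markers, 12 were higher in Venus-positive jejunum, 12 in the ileum, 5 in the colon and 2 in the duodenum, where 2 were lower. Their summed level was 915 to 2053 CPM in positive and 1024 to 1480.1 in negative duodenum, 9569 to 12299 and 1352 to 2060.3 for jejunum, 8144 to 12505 and 676 to 1024 for ileum, and 466 to 546 and 155 to 174 for colon. All 8 goblet markers were higher in Venus-positive cells of each region. They summed to 53013 to 60457 CPM in positive against 310.0 to 434 in negative duodenum, 1907 to 4907 against 296 to 455 for jejunum, 4387 to 10089.8 against 306 to 389 for ileum and 4068 to 4978 against 926 to 1848 for colon. Of 8 Paneth markers, 7, 7, 8 and 0 were higher from duodenum to colon, and in the duodenum they summed to 22738 to 54814 CPM against 296 to 955. No marker of these 3 lists was at 0 in all libraries of a group. Hepatocytes also make apolipoproteins, and of 7 of their markers 1 passed the filter on low counts, as did 1 of 7 pancreatic acinar markers. Venus-positive cells were lower in 8, 8, 7 and 5 of 8 enteroendocrine markers, 3, 6, 5 and 0 of 6 tuft markers and 3, 8, 8 and 4 of 8 stem and proliferation markers, from duodenum to colon. Among 6 colonocyte markers, 0, 1, 4 and 5 were higher and 2, 1, 0 and 0 lower from duodenum to colon. In the colon these 6 summed to 1516 to 1705 CPM in positive against 111 to 273 CPM in negative cells. The part of these cell types in the members' differences was not tested.

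**Figure D3:**
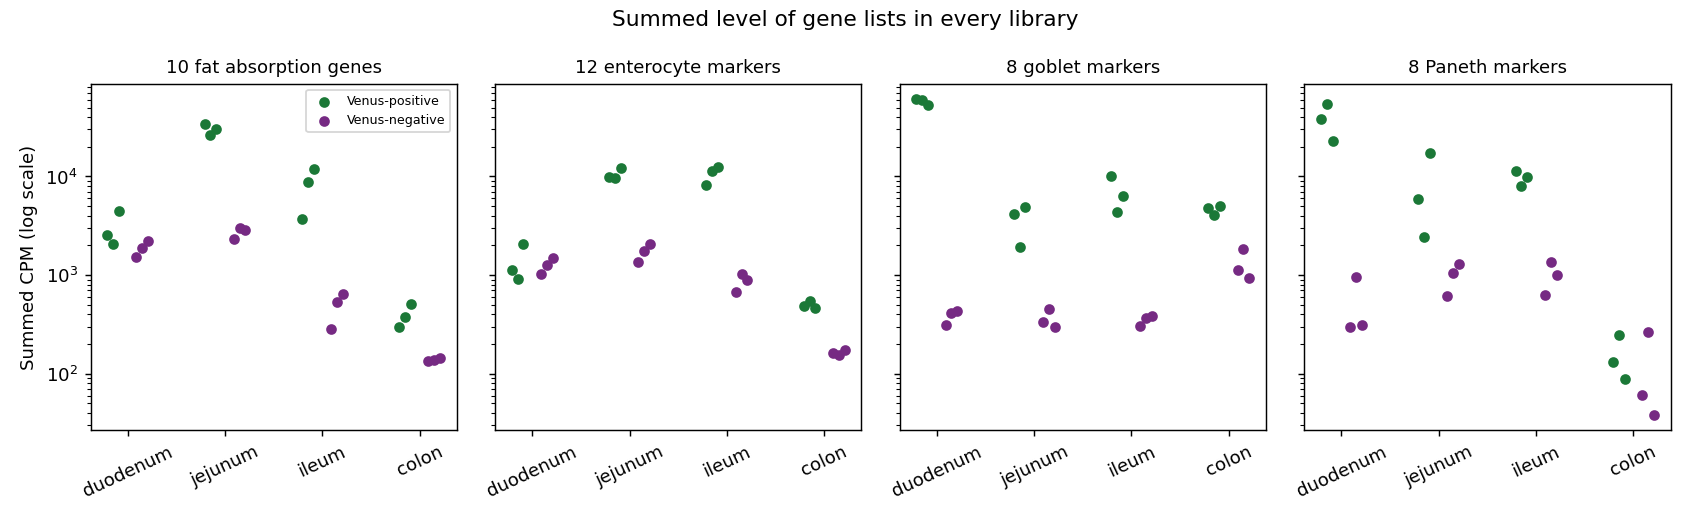
Summed CPM on a log scale (y axis) of the 10 fat absorption genes and of the enterocyte, goblet and Paneth marker lists in every library, by region (x axis) and sort (green Venus-positive, purple Venus-negative). The 10 genes and the enterocyte markers are apart between sorts in jejunum, ileum and colon and overlap in duodenum, where goblet and Paneth markers are furthest apart.

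Uptake at the cell surface was followed by *Cd36*, a membrane glycoprotein that binds long-chain fatty acids (ENSMUSG00000002944, chr5:17781690-17888801, minus strand). In Venus-positive jejunum its libraries read 55.4, 17.7 and 55.8 CPM, and in Venus-negative jejunum 6.68, 4.25 and 10.6 CPM. The groups did not overlap, although positive replicate 2 lay well under the others, and the log2 fold change was 2.58 ± 0.56 (SE, adjusted p = 4.20e-04). In the duodenum the order was turned round, at 2.25, 1.56 and 2.93 CPM in positive and 6.10, 5.25 and 5.19 CPM in negative cells. These groups did not overlap either, but the log2 fold change of -1.30 ± 0.58 did not pass (adjusted p = 0.121). *Cd36* was close to the floor in the ileum, with 9, 1 and 6 counts in positive and 1, 20 and 1 counts in negative libraries, and the ileal fold change of 0.17 ± 0.78 was not called. Without the single negative library at 20 counts it was 2.58, and leaving out each ileal library gave -0.34 to 2.58. In the colon no library held more than 3 counts. Endothelium, fat cells and macrophages are known to make *Cd36* as well. The 7 endothelial and stromal markers summed to 1.31 to 1.92 CPM in positive and 1.63 to 6.91 CPM in negative jejunum, where *Cdh5*, *Kdr* and *Col1a1* were at 0 in the positive libraries. The 5 adipocyte markers summed to at most 0.256 CPM there, with *Adipoq*, *Lep*, *Plin1* and *Plin4* at 0. The 8 leukocyte markers summed to 2.43 to 6.93 CPM in positive and 0.759 to 6.76 CPM in negative jejunum, after a sort that removed CD45-positive immune cells. The part of these other cell types in the *Cd36* levels was not tested.

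The cytosolic carriers *Fabp1* (liver type, ENSMUSG00000054422, chr6:71199827-71205023, plus strand) and *Fabp2* (intestinal type, ENSMUSG00000023057, chr3:122895072-122899506, plus strand) bind fatty acids inside the cell. *Fabp1* read 427, 425 and 702.6 CPM in positive and 68.7, 66.1 and 84.8 CPM in negative jejunum, a log2 fold change of 2.82 ± 0.38 (adjusted p = 1.05e-06). *Fabp2* read 2504, 2748 and 4471 CPM in positive and 362, 371 and 495 CPM in negative jejunum, a log2 fold change of 2.99 ± 0.47 (adjusted p = 8.79e-06). Both pairs of groups were clear of each other by several fold.

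In the ileum the carriers parted in level. *Fabp2* still read 485, 1155 and 2055 CPM in positive and 40.4, 65.5 and 158 CPM in negative cells (3.81 ± 0.49, adjusted p = 6.68e-07). *Fabp1* read 4.04, 2.70 and 2.06 CPM in positive and 1.40, 0.670 and 2.05 CPM in negative cells, a difference of 1.13 ± 0.41 with an adjusted p of 0.0296. That call for *Fabp1* was lost without positive replicate 1 (0.82, adjusted p = 0.160), without negative replicate 1 (1.16, 0.0620) or without negative replicate 2 (0.78, 0.175). In the duodenum neither carrier passed, at -0.37 ± 0.36 for *Fabp1* and 0.31 ± 0.44 for *Fabp2*. In the colon *Fabp2* read 156, 185 and 383 CPM in positive and 67.5, 106 and 105 CPM in negative cells (1.38 ± 0.45, adjusted p = 0.0381). The colonic groups did not overlap, but the call was lost in 5 of 6 fits that each left out 1 colon library, with 0.88 to 1.62 and adjusted p from 0.0328 to 0.243, and held only without positive replicate 1.

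Fat is rebuilt by *Mogat2*, which adds a fatty acid to monoacylglycerol (ENSMUSG00000052396, chr7:99219084-99238619, minus strand), and *Dgat1*, which makes triglyceride from diacylglycerol (ENSMUSG00000022555, chr15:76502015-76511953, minus strand). *Mogat2* read 114, 145 and 153 CPM in positive and 33.2, 38.9 and 82.8 CPM in negative jejunum (1.41 ± 0.44, adjusted p = 0.00951). Negative replicate 3 was the highest of its group yet under every positive library, and without negative replicate 1 the call was just lost (1.23, adjusted p = 0.0543). In the ileum *Mogat2* read 80.2, 98.2 and 132 CPM against 7.67, 12.8 and 18.0 CPM (3.02 ± 0.46, adjusted p = 8.07e-06). Its groups there lay wide apart. In the colon it read 3.94, 7.36 and 7.23 CPM against 1.80, 0.293 and 2.55 CPM (2.03 ± 0.52, adjusted p = 0.00806), and this call was lost without positive replicate 2 (1.83, adjusted p = 0.0512) or negative replicate 2 (1.42, 0.0741). In the duodenum *Mogat2* read 18.2, 18.7 and 42.8 CPM in positive and 29.1, 37.5 and 66.0 CPM in negative cells, with overlapping groups and a difference of -0.74 ± 0.44.

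*Dgat1* had the second smallest jejunal difference of the 10 genes, at 183, 215 and 212 CPM in positive and 39.3, 55.9 and 86.7 CPM in negative cells (1.74 ± 0.30, adjusted p = 3.14e-05). In the ileum it read 81.5, 88.1 and 111 against 17.9, 20.1 and 14.8 CPM (2.41 ± 0.31, adjusted p = 7.53e-07). In both regions the groups were far apart. In the duodenum (0.02 ± 0.30, 95% interval -0.58 to 0.63) and colon (0.37 ± 0.32, -0.28 to 1.02) they overlapped.

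Particle assembly rests on *Mttp*, the large subunit of the triglyceride transfer protein (ENSMUSG00000028158, chr3:138089854-138144968, minus strand), and *Apob*, the structural protein of the chylomicron (ENSMUSG00000020609, chr12:7977648-8016835, plus strand). *Mttp* read 1057, 1241 and 1336 CPM in positive and 178, 222 and 339 CPM in negative jejunum (2.30 ± 0.36, adjusted p = 9.31e-06), and 281, 393 and 472 against 28.7, 52.7 and 40.1 CPM in the ileum (3.24 ± 0.38, adjusted p = 1.78e-07). In both regions every positive library was above every negative one. In the duodenum its groups overlapped (-0.20 ± 0.35), and in the colon it was under 4 CPM in all 6 libraries (0.71 ± 0.41, adjusted p = 0.282).

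*Apob* read 7003, 4920.2 and 5989 CPM in positive and 432, 573 and 466 CPM in negative jejunum, a log2 fold change of 3.61 ± 0.43 (adjusted p = 1.98e-07). In the ileum it read 1124, 2858 and 3894 CPM against 112, 177 and 191 CPM (4.04 ± 0.44, adjusted p = 5.87e-08), with positive replicate 1 the lowest of its group. *Apob* was also the member with the largest difference in the colon, at 96.0, 142 and 77.0 CPM in positive and 31.0, 15.9 and 18.7 CPM in negative cells (2.27 ± 0.41, adjusted p = 2.98e-04). The call for *Apob* in the colon held in all 6 fits that left out 1 colon library. In the duodenum *Apob* was not called (0.62 ± 0.39, 95% interval -0.17 to 1.41).

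*Apoa1* (ENSMUSG00000032083, chr9:46228580-46230466, plus strand), *Apoc3* (ENSMUSG00000032081, chr9:46232933-46235636, minus strand) and *Apoa4* (ENSMUSG00000032080, chr9:46240696-46243459, plus strand) encode proteins of the particle surface. *Apoa1* is also the main protein of HDL, *Apoc3* slows the clearance of triglyceride-rich particles, and *Apoa4* is made by the gut in response to fat. The 3 genes lie side by side within 14880 bases of chromosome 9, with 2466 bases between *Apoa1* and *Apoc3* and 5059 bases between *Apoc3* and *Apoa4*.

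In the jejunum *Apoa4* had the largest sort difference of the 10 genes, at 14010.5, 8697 and 9685 CPM in positive and 682, 799 and 645 CPM in negative cells (3.93 ± 0.54, adjusted p = 1.23e-06). *Apoa1* read 8025, 7686 and 7439 CPM against 498, 852 and 618 CPM (3.56 ± 0.47, adjusted p = 8.17e-07). *Apoc3* read 285, 111 and 224 CPM against 24.5, 14.3 and 20.7 CPM (3.38 ± 0.48, adjusted p = 2.15e-06). None of these groups overlapped, and the 3 positive libraries of *Apoa1* were close together.

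In the ileum the same 3 genes were called, on far lower levels for *Apoa4* and *Apoc3*. *Apoa1* read 1633, 4086 and 4987 CPM against 67.2, 203 and 216 CPM (4.46 ± 0.49, adjusted p = 7.76e-08). *Apoa4* read 20.6, 50.4 and 107 CPM against 5.12, 3.70 and 5.38 CPM (3.65 ± 0.54, adjusted p = 4.50e-06). *Apoc3* had the largest ileal difference of the 10 genes, at 4.58, 5.35 and 16.7 CPM against 0.413, 0.282 and 0.277 CPM (4.72 ± 0.59, adjusted p = 4.23e-07), where the negative libraries held 10, 8 and 5 counts.

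*Apoa4* was the only member called in the duodenum, at 1089.9, 732 and 1829 CPM in positive and 364, 468 and 508 CPM in negative cells (1.45 ± 0.49, adjusted p = 0.0386). Its groups did not overlap, yet the call was lost in 5 of 6 fits that left out 1 duodenal library, with log2 fold changes of 1.02 to 1.70 and adjusted p from 0.0281 to 0.177. It was kept only without positive replicate 2, the lowest of its group. *Apoa1* read 418, 401 and 848 CPM against 220.4, 317 and 332 CPM in the duodenum, also without overlap, and did not pass (0.94 ± 0.43, adjusted p = 0.131). In the colon *Apoa1* read 13.1, 12.2 and 20.9 CPM against 10.8, 5.27 and 5.70 CPM (1.10 ± 0.45, adjusted p = 0.106) and *Apoa4* read 16.6, 13.7 and 12.1 CPM against 14.4, 4.10 and 2.64 CPM (1.03 ± 0.50, 0.186). Negative replicate 1 was the highest of its group for both genes, and without it *Apoa4* passed (2.07, adjusted p = 0.0102). Colonic *Apoc3* held 4, 5 and 1 counts in positive and 6, 0 and 1 counts in negative libraries, so no difference was detectable at this depth.

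The remaining duodenal and colonic values show how far the sorts lay together there. In the duodenum *Fabp1* read 127, 66.4 and 196 CPM in positive and 135, 128 and 242 CPM in negative cells, and *Fabp2* read 398, 348 and 418 and 294, 289 and 354 CPM. *Mttp* read 166, 175 and 441 and 206, 300.3 and 394 CPM, and *Apob* read 296, 275 and 552 and 210.3, 293 and 228 CPM. Each of these pairs of groups overlapped, and positive replicate 3 was the highest positive library for all 4 genes. *Dgat1* read 33.7, 46.8 and 72.9 and 42.8, 47.6 and 60.3 CPM and *Apoc3* read 15.6, 6.65 and 18.8 and 10.7, 8.88 and 8.36 CPM (0.55 ± 0.46, adjusted p = 0.438). In the colon *Fabp1* read 1.24, 0.779 and 1.10 and 0.719, 0.439 and 0.340 CPM (1.09 ± 0.55, adjusted p = 0.205), and *Mttp* read 3.79, 2.69 and 2.45 and 1.80, 1.61 and 2.04 CPM. The colonic groups of these 2 genes did not overlap, although neither passed.

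Reads of overlapping genes could bear on 3 members, since the library kit keeps strand but the strand setting of the counting is not given in the sources used here. Exons of *Apoa4* share 632 bases with *Gm10680* (chr9:46242621-46243529) and 634 bases with *Gm47528* (chr9:46239841-46242032), both on the opposite strand. In Venus-positive jejunum *Gm10680* held 593 to 1012 counts, which is 0.447% to 0.517% of those of *Apoa4*. Exons of *Mttp* share 457 bases with *Trmt10a* and 132 with *Gm43691*, which held at most 79 and 13 counts in a library. *Mogat2* shares 55 bases with *Gm45012*, at most 6 counts.

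The second question was whether the sort difference itself changes along the gut. It was smaller in the duodenum than in the jejunum for all 10 genes, with interaction terms from -1.72 ± 0.42 for *Dgat1* (adjusted p = 0.00625) to -3.88 ± 0.80 for *Cd36* (adjusted p = 0.00163). Over all genes this contrast called 8.77% higher and 5.84% lower. Against the ileum, the duodenal difference was smaller for 8 genes, with 4.58% of all genes called higher and 5.92% lower. The exceptions were *Fabp1* (-1.50 ± 0.54, adjusted p = 0.0749) and *Cd36* (-1.47 ± 0.99, 0.392). The *Fabp1* term passed with DESeq2 (-1.51, adjusted p = 0.0417), without a filter on low counts (-1.49, 0.0342) and with the i5 index as a covariate (-1.54, 0.0469), so that 9 members were called in each of these. The *Cd36* term passed without ileal negative replicate 2, the library with 20 counts (-3.89, adjusted p = 0.0267), and the *Fabp1* term passed without duodenal positive replicate 3 (-1.93, 0.0211) or ileal negative replicate 3 (-1.89, 0.0328). The *Mogat2* term against the jejunum was lost without duodenal positive replicate 1 or 2, duodenal negative replicate 3 or jejunal negative replicate 1, with -1.74 to -1.95 and adjusted p from 0.0503 to 0.0710. The *Apoa4* term against the ileum (-2.20 ± 0.69, adjusted p = 0.0367) was lost in 7 of 12 fits that left out 1 library, and without ileal positive replicate 3 it was -1.46 (adjusted p = 0.206).

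Between jejunum and ileum no interaction was called by edgeR for the 10 genes, where 0.0731% of all genes were called higher and 0.193% lower, and DESeq2 called 0 too. At an unadjusted p of 0.05, 2 were larger in the jejunum (*Cd36* at 2.41 ± 0.96 and *Fabp1* at 1.69 ± 0.55) and 1 was larger in the ileum (*Mogat2* at -1.61 ± 0.61). A p that misses the threshold does not show that the sort differences are alike, and the 95% interval for *Apoa1* was -2.14 to 0.33. Between ileum and colon, 5 genes had the larger difference in the ileum against 1.52% of all genes called higher and 1.26% lower: *Apoa1* (3.36 ± 0.63, adjusted p = 0.00336), *Apoa4* (2.62 ± 0.71, 0.0406), *Mttp* (2.53 ± 0.55, 0.0107), *Fabp2* (2.43 ± 0.63, 0.0316) and *Dgat1* (2.04 ± 0.44, 0.0104). This count fell to 3 without any 1 of ileal negative replicates 1 or 2, ileal positive replicates 2 or 3, or colon positive replicates 1 or 2, with *Fabp2* and *Apoa4* lost. DESeq2 called 7 and so did edgeR with no filter on low counts, both adding *Apoc3* and *Apob*. In edgeR with the filter these were 4.60 ± 1.31 (adjusted p = 0.0517) and 1.77 ± 0.55 (0.0802), and in DESeq2 4.82 (adjusted p = 2.23e-04) and 1.94 (0.00785). The edgeR count was 7 without ileal positive replicate 1, where *Apob* (2.12, adjusted p = 0.0166) and *Apoc3* (4.90, 0.0244) were added. Over the 12 fits *Fabp2* was lost in 8 and *Apoa4* in 9.

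The third question was how each sorted population changes from one region to the next. Among Venus-positive cells, all 10 genes rose from duodenum to jejunum, from 1.99 ± 0.31 for *Dgat1* to 4.26 ± 0.62 for *Cd36*, while 14.8% of all genes were called higher and 18.4% lower. Among Venus-negative cells edgeR called 0 of 10 over the same step, where 0.419% of all genes were called higher and 0.306% lower. At an unadjusted p of 0.05, 3 were higher (*Apob*, *Apoa1* and *Apoc3*, at 1.01, 1.18 and 1.09) and 1 was lower (*Fabp1*, -1.20). DESeq2 called 1, *Fabp1* (-1.26, adjusted p = 0.0447).

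From jejunum to ileum the 10 genes fell by differing amounts. In Venus-positive cells edgeR called 6 lower, where 3.00% of all genes were called higher and 2.15% lower. At an unadjusted p of 0.05, 9 were lower, all but *Mogat2*, and DESeq2 called 8. The falls were steep for *Apoa4* (-7.51 ± 0.63, adjusted p = 2.09e-09), *Fabp1* (-7.45 ± 0.48, 6.42e-12), *Cd36* (-6.998 ± 0.73, 8.95e-08) and *Apoc3* (-4.55 ± 0.51, 2.92e-07). They were shallow for *Mttp* (-1.67 ± 0.36, 0.00313) and *Dgat1* (-1.12 ± 0.30, 0.0224). Without jejunal positive replicate 2, ileal positive replicate 1 or ileal positive replicate 2, *Dgat1* no longer passed. *Fabp2* (-1.40 ± 0.45, adjusted p = 0.0655), *Apob* (-1.19 ± 0.39, 0.0766), *Apoa1* (-1.11 ± 0.43, 0.152) and *Mogat2* (-0.41 ± 0.43, 0.722) did not pass. Ileal positive replicate 3 was the highest of its group for these 4 genes, and without it *Fabp2* (-1.98, adjusted p = 0.0145) and *Apob* (-1.59, 0.0317) passed.

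In Venus-negative cells all 10 genes fell from jejunum to ileum, where 0.405% of all genes were called higher and 1.70% lower. The steepest falls were those of *Apoa4* at -7.23 ± 0.63, *Apoc3* at -5.89 ± 0.60, *Fabp1* at -5.76 ± 0.45 and *Cd36* at -4.59 ± 0.67. The *Cd36* fall turned on ileal negative replicate 2, and leaving out 1 library at a time gave -4.08 to -4.85 with that library and -7.0002 without it. The other 6 fell by 1.62 (*Apob*) to 2.61 (*Mttp*) on the log2 scale. Without ileal negative replicate 1, 6 of the 10 passed, and *Fabp2* (-1.87, adjusted p = 0.0516), *Mogat2* (-1.75, 0.0964), *Apob* (-1.41, 0.196) and *Apoa1* (-1.64, 0.0880) did not. *Mogat2* was also lost without jejunal negative replicate 3 (-1.49, adjusted p = 0.116), and *Apob* without jejunal negative replicate 2 (-1.49, 0.0750) or ileal negative replicate 2 (-1.69, 0.0673).

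Neighbours in the chromosome 9 cluster parted in level. Within a library, the ratio of *Apoa4* to *Apoa1* per kilobase was 1.24 to 1.78 in Venus-positive duodenum and 0.771 to 1.19 in Venus-positive jejunum. In Venus-positive ileum it was 0.00840 to 0.0147. In Venus-negative cells it was 1.004 to 1.13, 0.638 to 0.931 and 0.0124 to 0.0518 over the same regions. In the colon, where both genes were low, the ratio was 0.395 to 0.861 in positive and 0.315 to 0.908 in negative cells. The ileal libraries were thus below every library of the other regions, in both sorts. The ratio of *Apoc3* to *Apoa1* was 0.0202 to 0.0454 in positive duodenum, 0.0176 to 0.0433 in positive jejunum and 0.00160 to 0.00408 in positive ileum. In negative cells it was 0.0307 to 0.0590, 0.0204 to 0.05995 and 0.00157 to 0.00748.

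The carriers *Fabp1* and *Fabp2* parted too. The ratio of *Fabp1* to *Fabp2* per kilobase was 0.333 to 0.821 in positive and 0.770 to 1.19 in negative duodenum, 0.270 to 0.298 and 0.299 to 0.331 for jejunum, and 0.00175 to 0.0145 and 0.0179 to 0.0605 for ileum. It stayed at 0.00500 to 0.0138 and 0.00563 to 0.0186 in the colon, where *Fabp1* held as few as 11 counts in a positive and 4 in a negative library. The ratio of *Mttp* to *Apob* was 1.26 to 1.79 in positive and 2.20 to 3.88 in negative duodenum, 0.339 to 0.566 and 0.869 to 1.64 for jejunum, 0.272 to 0.561 and 0.472 to 0.670 for ileum, and 0.0426 to 0.0886 and 0.130 to 0.245 for colon. Its libraries overlapped between positive jejunum and positive ileum, and the colon libraries were the lowest in each sort. These pairs were picked after their levels were seen, and the ratios are given without a test.

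**Figure D4:**
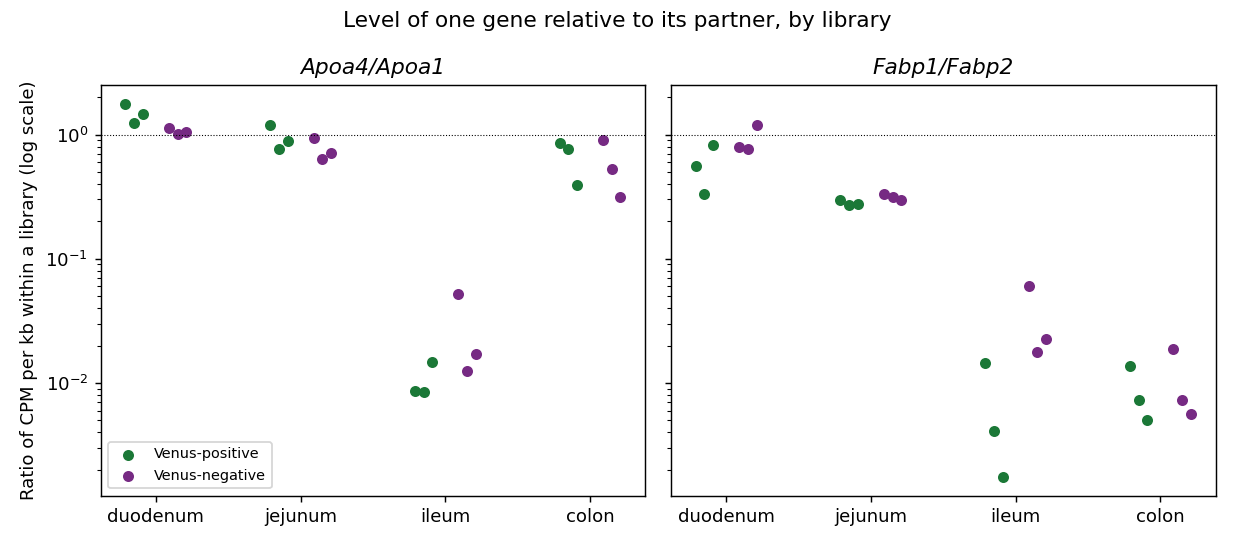
Ratio of CPM per kilobase of Apoa4 to Apoa1 and of Fabp1 to Fabp2 within each library, on a log scale (y axis), by region (x axis) and sort (green Venus-positive, purple Venus-negative); the dotted line marks a ratio of 1. Both ratios are low in ileum, and in colon the Apoa4 to Apoa1 ratio is high again while the Fabp1 to Fabp2 ratio is not.

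From ileum to colon, 9 of 10 genes fell in Venus-positive cells, where 11.0% of all genes were called higher and 10.7% lower. The steepest were *Apoa1* (-7.85 ± 0.58, adjusted p = 2.37e-11) and *Mttp* (-7.004 ± 0.46, 5.31e-12), and *Fabp1* (-1.50 ± 0.44) and *Apoa4* (-2.07 ± 0.50) fell least. The *Fabp1* call was lost without ileal positive replicate 1 (-1.20, adjusted p = 0.0722) or colon positive replicate 2 (-1.30, 0.0729), and that of *Apoa4* without ileal positive replicate 3 (-1.32, 0.0695). *Cd36* was at or near the floor in both regions. In Venus-negative cells 5 fell, *Mogat2*, *Dgat1*, *Mttp*, *Apob* and *Apoa1*, from -1.57 ± 0.32 to -4.49 ± 0.50, where 2.22% of all genes were called higher and 3.02% lower. *Fabp2* was not called in these cells (0.08 ± 0.44, 95% interval -0.81 to 0.98).

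Across all 24 libraries the 10 genes rose and fell together to differing degrees. On log2 CPM, Pearson's r between pairs of them ranged from 0.61 (*Fabp1* with *Apob*) to 0.97 (*Dgat1* with *Mttp*), with a median of 0.83 over 45 pairs. The points share regions and sorts, so this describes the common pattern of the 8 groups. The 5 genes most like the mean of the 10, by the same measure, were *Bst1* (r = 0.98), *Creb3l3* (0.97), *Ace* (0.97), *Cyp3a11* (0.97) and *Rbp2* (0.97). *Ace*, a brush border peptidase, had mean levels of 1409 CPM in positive and 114 CPM in negative jejunum. *Rbp2*, the cytosolic retinol carrier of enterocytes, had 553 and 63.7 CPM. *Creb3l3*, a transcription factor of lipid genes, had 466 and 41.5 CPM.

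A wider list of 79 genes of the same pathway, of which 73 were tested, was followed in the sort comparisons. Higher and lower calls numbered 10 and 4 for duodenum, 37 and 9 for jejunum, 35 and 4 for ileum, and 25 and 2 for colon, with medians of 0.15, 0.97, 0.82 and 0.49. These counts, and those of the groups below, are read against the shares of all genes called, which were 8.88% higher and 8.08% lower for duodenum, 18.3% and 25.6% for jejunum, 17.9% and 20.6% for ileum, and 9.31% and 3.80% for colon. The duodenal counts lie near that background and are not read as a result about these genes. Of the list, 7 genes (*Apobec1*, *Klf4*, *Lpin2*, *Lpin3*, *Mia3*, *Pnpla2* and *Ppard*) were higher in every region, as were 2.88% of all genes tested. In the groups below, a region is mostly named only where the gene was among the 3 largest changes there. A region left unnamed does not mean that no call was made in it. In the luminal uptake and activation group (10 tested), 1 was called higher and 1 lower in duodenum, 4 and 3 in jejunum, 2 and 2 in ileum and 1 and 1 in colon. Apart from the 4 higher in jejunum, these counts lie near the shares of all genes and are not read as a result about these genes. Among them *Slc27a4*, a fatty acid transport protein with acyl-CoA synthetase activity, rose in Venus-positive jejunum (424 ± 23.4 against 52.9 ± 25.2 CPM, 3.002 ± 0.43), ileum (3.75 ± 0.44) and colon (2.28 ± 0.43). *Acsl5*, which activates long-chain fatty acids, rose in the ileum (2.21 ± 0.32) and was called higher in 2 regions in all. Other members of this group fell. *Slc27a2* was lower in ileum (-2.10 ± 0.46) and colon (-1.997 ± 0.52), and *Acsl4* (-2.54 ± 0.72) and the HDL receptor *Scarb1* (-2.73 ± 0.80) were lower in the jejunum. Both were low there. *Acsl4* held 0 to 11 counts in positive and 24 to 56 in negative libraries, and *Scarb1* 4 to 18 and 8 to 93. In the duodenum *Dbi*, the acyl-CoA binding protein, fell (-1.18 ± 0.26) and *Acbd3* rose (1.17 ± 0.26).

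In glycerolipid synthesis and lipid droplets (19 tested), 13 genes rose and 2 fell in jejunum, 11 and 1 in ileum, 8 and 0 in colon, and 3 and 0 in duodenum. *Lpin2*, a phosphatidate phosphatase, rose in all 4 regions, by 1.34 ± 0.31 in the duodenum, 2.97 ± 0.32 in the jejunum and 2.98 ± 0.32 in the ileum. Its relative *Lpin1* moved the other way in the jejunum (0.312 ± 0.329 against 5.77 ± 1.56 CPM, -4.21 ± 0.65), while *Lpin3* (1.36 ± 0.29) and the lipase *Pnpla2* (0.82 ± 0.26) rose in the duodenum. *Cidec*, a lipid droplet protein, rose in the jejunum (3.77 ± 0.67) and ileum (3.93 ± 0.74). In the colon it was higher too, at 4.08 ± 1.64 CPM against 1 or 2 counts per negative library. *Cideb* (2.83 ± 0.35) and *Mgll* (3.79 ± 0.88), the monoglyceride lipase, rose in the colon, and *Dgat2*, the other triglyceride synthase, rose in the ileum (2.95 ± 0.43). In all, *Cideb* and *Dgat2* were each called higher in 3 regions and *Mgll* in 1, and *Lpin1* was called lower in 2.

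In chylomicron assembly and export (16 tested), 9 genes rose in jejunum, 9 in ileum, 5 in colon and 3 in duodenum, and none fell. *Apobec1*, the deaminase that edits *Apob* mRNA to the short gut form, rose in all 4 regions, by 2.47 ± 0.35, 2.51 ± 0.35, 2.72 ± 0.35 and 2.95 ± 0.38 from duodenum to colon. *A1cf*, its cofactor (1.78 ± 0.27), and *Mia2* (1.94 ± 0.29), an export factor for large cargo, rose in the jejunum. Its relative *Mia3* (2.26 ± 0.28) and the coat protein gene *Sec23b* (1.005 ± 0.34) rose in the duodenum. *Tm6sf2*, needed to lipidate these particles, rose in the ileum (2.98 ± 0.41) and colon (2.42 ± 0.53), and *Prap1* rose by 3.09 ± 0.40 and 2.08 ± 0.42. In all, *Tm6sf2*, *Prap1* and *A1cf* were each called higher in 3 regions and *Mia2* in 2.

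Of 9 other apolipoproteins and surface proteins, 4 were tested. *Apool*, whose product sits in mitochondria despite its name, fell in the duodenum (-1.99 ± 0.40) and jejunum (-1.50 ± 0.39). *Apoe* was called lower in the jejunum on few counts, at 0 to 3 in positive and 0 to 44 in negative libraries, ranges that overlap. *Apoa2*, *Apoa5*, *Apoc1*, *Apoc2* and *Apom* did not pass the filter and held at most 18, 11, 7, 7 and 4 counts in a library, in contrast to *Apoa1*, *Apoa4* and *Apoc3*. Of 24 transcription factors, 11 rose and 2 fell in jejunum, 13 and 1 in ileum, 11 and 1 in colon and 3 and 2 in duodenum. *Creb3l3* rose in jejunum (3.49 ± 0.61) and ileum (4.79 ± 0.67). *Maf* rose by 2.76 ± 0.32, 3.74 ± 0.34 and 3.29 ± 0.40 from jejunum to colon, and *Prdm1* by 4.24 ± 0.86 in the ileum and 3.18 ± 0.97 in the colon. *Gata4* rose in the colon (2.49 ± 0.55) at low levels of 1.17 ± 0.407 against 0.175 ± 0.233 CPM. *Klf4*, a factor of goblet and surface cells, rose in the duodenum (3.11 ± 0.38) and jejunum (3.33 ± 0.38), and in the duodenum the nuclear receptors *Nr5a2* (-1.67 ± 0.31) and *Nr1h3* (-1.44 ± 0.39) fell. *Nr1h3* moved the other way in the ileum, where it rose by 1.06 ± 0.38 (adjusted p = 0.0267). In all, *Prdm1* was called higher in 3 regions and *Gata4* in 2, and *Nr5a2* was called lower in 3. The adjusted p of the genes named from this list ranged from 8.13e-09 to 0.0479 by edgeR.

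**Figure D5:**
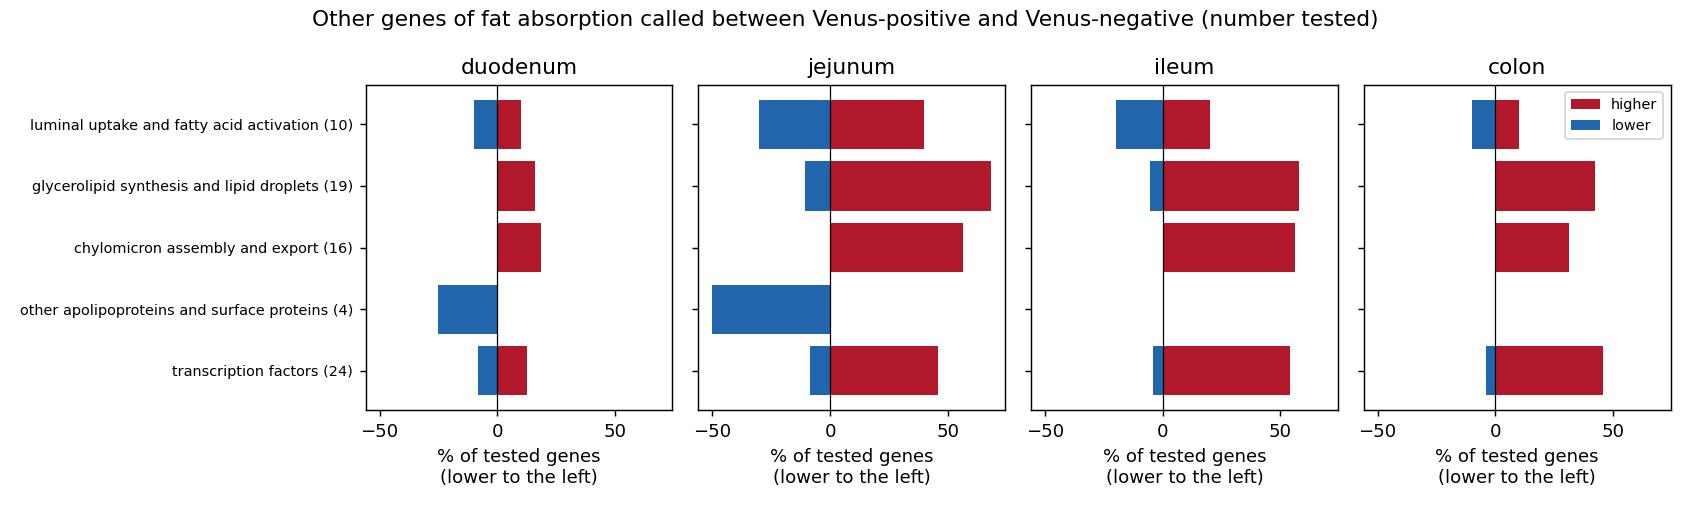
Share of the tested genes in each group of the wider fat absorption list (y axis, number tested in brackets) that were called higher (red, to the right) or lower (blue, to the left) in Venus-positive cells, in percent (x axis), by region. The shares of higher calls are largest in jejunum and ileum for glycerolipid synthesis and chylomicron assembly.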

How the data were processed

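RNA from 24 sorted-cell libraries (4 gut regions, 2 sorts, 3 libraries a group) was made into stranded total RNA libraries and read single-end on an Illumina instrument. The authors aligned the reads to GRCm38 with STAR (version 2.5.1 in the submitters' processing notes, which also list CASAVA) and deposited raw counts per gene. The strand setting of the counting is not given in the sources used here. Of each column, 39.4% to 75.8% lay in 4 rows that name no gene, which were left out. This share was 64.6% to 75.8% in Venus-positive duodenum, and the highest elsewhere was 60.6%, in a Venus-positive ileum library. Positions and exon lengths come from the annotation of GRCm38.

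The counts were tested with edgeR 4.0.16 in R 4.3.3, by the quasi-likelihood test with TMM scaling, on the 15044 genes that passed filterByExpr (a minimum count of 10, total of 15), in a model with 8 group coefficients. Contrasts compared the sorts within regions, neighbouring regions within sorts, and the sort differences between regions. All 15044 genes entered the Benjamini-Hochberg adjustment, and calls were made at 0.05. Errors of fold changes are the log2 fold change over the square root of F. CPM were scaled by the TMM-adjusted library size, and per-kilobase levels divide them by exon length. The steps were tested on simulated data.

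All 10 members were named in every comparison. Of the wider pathway list, up to 3 called genes with the largest log2 fold change were named per group and region. The genes most alike were the 5 with the highest Pearson correlation, over 24 libraries, of log2 CPM (prior count 2) with the mean of the members' standardised values. The members and lists were chosen with earlier results of these data known. Alternatives were DESeq2 1.42.0, RLE factors, library size alone, 2 other filters, nuclear genes alone, the i5 index as a covariate, only the libraries compared, and each library left out. Replicate numbers follow accession order and pair no libraries. The labels do not say which libraries come from the same mouse, so p-values measure the spread between libraries, which may in part be technical.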

Additional observations from a re-analysis of the deposited data

Results flagged for a closer look

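The sort difference depended on the region by the test of the difference itself (edgeR interaction terms, log2 scale) for 23 combinations of member and regions. Between duodenum and jejunum all 10 genes were flagged on this ground, with *Cd36* at -3.88, *Fabp1* at -3.20, *Apob* at -2.99, *Apoc3* at -2.83, *Fabp2* at -2.67, *Apoa1* at -2.62, *Mttp* at -2.50, *Apoa4* at -2.48, *Mogat2* at -2.15 and *Dgat1* at -1.72. Between duodenum and ileum the terms were -4.18 for *Apoc3*, -3.75 for *Mogat2*, -3.52 for *Apoa1*, -3.50 for *Fabp2*, -3.44 for *Mttp*, -3.42 for *Apob*, -2.39 for *Dgat1* and -2.20 for *Apoa4*. Between ileum and colon they were 3.36 for *Apoa1*, 2.62 for *Apoa4*, 2.53 for *Mttp*, 2.43 for *Fabp2* and 2.04 for *Dgat1*. Goblet and Paneth marker sums differ in the same direction between the sorts of duodenum, jejunum and ileum, and by most in the duodenum; their part in these terms was not tested.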

How the results depend on the processing

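No paired analysis was possible because the labels do not name the mouse of each library and carry no replicate number. Most counts of called members held within 1.5 times under the alternatives. The exceptions follow. With DESeq2, 1 member was called between Venus-negative duodenum and jejunum, and without a filter on low counts 2 were (0 in the main analysis). Duodenal members higher in Venus-positive cells numbered 2 with library size alone, without a filter and with only the libraries compared (main 1), the addition being *Apoa1*, and colonic ones 5 without a filter (main 3). A minimum of 10 counts in every library left 6 members to test, so that 6 were called in the jejunal sort comparison, from duodenum to jejunum in positive cells, from jejunum to ileum in negative cells and in the duodenum-jejunum interaction, and 3 from jejunum to ileum in positive cells. With only the libraries compared, 3 members were called in the ileum-colon interaction. With library size alone, 16 wider pathway genes were higher (main 10) and 2 lower (main 4) in the duodenum; this scaling moved the median log2 fold change of all genes from -0.16 to 0.27 there. Leaving out each library gave 0 to 1 members higher in the duodenum, 1 to 3 in the colon, 6 to 10 called from jejunum to ileum in negative cells and 3 to 7 in the ileum-colon interaction; the cause was not tested.

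Among single genes, the ileal sort call of *Fabp1* was lost with library size alone (adjusted p = 0.0517) and only the libraries compared (0.128). The colonic call of *Fabp2* was lost with RLE factors (0.0516), library size alone (0.0563) and nuclear genes alone (0.0601), and that of *Mogat2* with only the libraries compared (0.0748). With library size alone, *Dgat1* was not called between jejunum and ileum in either sort, nor *Mogat2* and *Apob* in negative cells, nor the duodenum-jejunum terms of *Mogat2* and *Dgat1* and the duodenum-ileum term of *Apoa4*. From jejunum to ileum in positive cells, *Fabp2* and *Apob* passed with DESeq2, without a filter and with the i5 index, and *Apoa1* with the last 2 of these.

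Directions turned only where no call had been made. *Apoc3* in the colonic sort comparison was -0.000281 with DESeq2, *Dgat1* in the duodenal one -0.0032 with the i5 index, and *Fabp1* and *Mttp* in the duodenal one 0.063 and 0.26 with library size alone, as was *Fabp2* between negative ileum and colon at -0.28. Leaving out single libraries turned the duodenal sort differences of *Mttp* (-0.82 to 0.035) and *Dgat1* (-0.32 to 0.24), the ileal one of *Cd36* (-0.34 to 2.58) and the colonic one of *Apoc3* (-0.65 to 2.37). It also turned the jejunum-ileum terms of *Apoa4* (-0.13 to 1.03) and *Cd36* (-0.0023 to 2.91) and the ileum-colon term of *Fabp1* (-0.32 to 0.41). In negative cells it turned *Mogat2* (-0.30 to 0.64), *Cd36* (-0.019 to 0.65) and *Dgat1* (-0.079 to 0.45) from duodenum to jejunum, and *Fabp2* (-0.27 to 0.80), *Apoa4* (-0.49 to 0.93) and *Apoc3* (-2.82 to 0.26) from ileum to colon. The 200-base promoter window kept the nuclear receptor hexamer in 1 member, *Fabp1*. Depth limits *Cd36* in ileum and colon and *Apoc3* in the colon most.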

Other observations

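The opposite-strand gene *Gm10680* over an exon of *Apoa4* held a median of 0.454% of the counts of *Apoa4* over 24 libraries, with a range of 0% to 13.4%. The highest share came from a Venus-negative ileum library with 13 counts of *Gm10680*. *Apoa4* was low in all libraries of that group, at 97 to 124 counts, and the others held 0 counts of *Gm10680*.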
